A study of Mus musculus with 8 samples.

Results

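Mitochondrial ribosomal proteins are the proteins of the ribosome that works inside mitochondria, and all of them are encoded in the nucleus. The members described here are the protein-coding genes whose symbol starts with Mrpl or Mrps and a number, 78 of the 21643 genes that the deposited count table names, 49 Mrpl and 29 Mrps. Each gene stands by its transcript row with the highest count summed over all 8 libraries, and all 78 had counts and passed the filter on low values.

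The libraries came from polyribosome-associated RNA of C57Bl/6 mice aged 7 to 9 weeks. At 6 h the groups were fear conditioned hippocampus, control hippocampus, fear conditioned cortex and control cortex, and the same 4 groups were taken at 1 h, with 1 library for each combination. Contextual fear conditioning pairs a chamber with a foot shock, and the control mice saw the context alone. The labels call the tissues frontal cortex and hippocampus, while the deposited design and dissection texts name the prefrontal cortex alone, and they do not say whether a library held 1 animal or several. No group had a replicate, so each p-value below measures the spread left around an additive model of tissue, training and time.

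The mitochondrial ribosome reads the few messages of the mitochondrial genome, which code for core subunits of the respiratory chain and of ATP synthase. Its large subunit joins amino acids and its small subunit decodes the message. Part of its proteins descend from the bacterial ribosome and the rest were added in the mitochondrial lineage. Neurons depend on the respiratory chain for the ATP that synapses use, so the messages of these proteins are of interest in a preparation of RNA on ribosomes. By their names the Mrpl proteins belong to the large subunit and the Mrps proteins to the small one, except that Mrps18a and Mrps30 sit in the large subunit and Mrps36 is known as a subunit of the 2-oxoglutarate dehydrogenase complex.

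The 4 stretches of promoter sequence below lie upstream of members that the results turn on. Mrps12, Mrpl2 and Mrpl20 are among the 8 largest falls at 6 h, and Mrps22 carries a match to an ETS motif next to its start. Each stretch is the 120 bases before the RefSeq start, from RefSeq on GRCm38.p6, and none overlaps an annotated exon. Capitals mark a motif match.
Mrps12 (chr7:28741822-28741941, minus strand): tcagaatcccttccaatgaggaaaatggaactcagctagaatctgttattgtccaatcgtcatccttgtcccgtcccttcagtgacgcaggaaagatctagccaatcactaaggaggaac
Mrpl2 (chr17:46646101-46646220, plus strand): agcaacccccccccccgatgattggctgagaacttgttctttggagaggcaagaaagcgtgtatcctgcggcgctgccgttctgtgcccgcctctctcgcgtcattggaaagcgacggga
Mrpl20 (chr4:155802758-155802877, plus strand): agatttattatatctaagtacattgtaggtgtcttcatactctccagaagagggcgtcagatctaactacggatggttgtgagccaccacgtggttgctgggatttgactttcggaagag
Mrps22 (chr9:98601680-98601799, minus strand): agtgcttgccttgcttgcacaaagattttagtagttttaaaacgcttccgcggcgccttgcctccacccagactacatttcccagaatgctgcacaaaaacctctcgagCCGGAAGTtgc
RefSeq promoters were at hand for 69 of the 78 members. The motifs of 3 factors were searched on both strands in the 250 bases before the start, the palindromic consensus of NRF1, a factor known to drive nuclear genes for mitochondria, CCGGAAGT of the ETS family and AAGATGGCG of YY1, and no motif is part of another. An NRF1 match was found in 3 member promoters (4.35%), against 1.9% of the 9361 promoters of genes with a tested row. ETS matches were found in 10 members (14.5%), against 6.66% of those promoters. YY1 matches were found in 2 members (2.9%), against 1.4%. Any of the 3 motifs was found in 15 members (21.7%), against 9.6% of promoters of genes with a tested row and 4.68% of all 27025 promoters in the table. Of the 22 members that were lower at 6 h, 19 had a promoter and 2 of these held a match. Another protein-coding gene started upstream on the opposite strand within 1000 bases of 18 members (23.1%), against 6.79% of all 21922 annotated protein-coding genes. That background includes genes without a tested row, and the share among genes with a tested row is not given. Mrps12 shares such a start region with Sars2, the mitochondrial seryl-tRNA synthetase, and Mrpl2 with Klc4.

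The libraries held 2370973 to 5296986 counts. The smallest was control hippocampus at 6 h, where the members' median was 11 counts, 17 members had under 5 counts and Mrpl23, Mrpl55 and Mrps28 had none. In the other 7 libraries no member was at 0 and the median member had 46.5 to 87 counts. The members together held 0.0774% of the counts in that library and 0.113% to 0.201% in the others. The conditioned 1 h libraries of hippocampus and cortex agreed within sampling noise. The variance of their difference was 1.08 times that of counting alone over 15511 rows and 0.963 times over the members, against 19.4 and 6.29 times between the control hippocampus and control cortex libraries at 1 h. The 7 marker genes of hippocampal excitatory neurons summed to 313 CPM, a library's count of a gene scaled to a fixed library size, in the conditioned 1 h library labelled hippocampus and 305.5 CPM in the one labelled cortex. They summed to 573 to 1008 CPM in the other 3 hippocampus libraries and 81.4 to 97.8 CPM in the other 3 cortex libraries. The conditioned 1 h libraries therefore stand beside the results as values, and the tests use the other 6 libraries. The 5 endothelial markers were near 0, with sums of 1.32 to 5.57 CPM in all 8 libraries.

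Per length of transcript, the members differed widely in level. Over the 73 members with a usable transcript length the median level was 9.55 RPKM, CPM per kilobase of transcript, as the mean of the 6 tested libraries. Mrps33, a mitochondria-specific small subunit protein, was highest at 47.6 ± 17.6 RPKM (SD, n = 6 libraries), with a range of 29.7 to 78.5 RPKM. Mrpl30 followed at 36.2 ± 13.4 RPKM, Mrps21 at 32.7 ± 26.6 RPKM, Mrpl4, which lines the exit tunnel, at 31.4 ± 14.3 RPKM and Mrpl52 at 30.8 ± 15.8 RPKM. The SDs of these 5 levels overlap, so their order is not resolved. Mrpl47 was lowest at 1.66 ± 0.32 RPKM. Mrps35 had 1.81 ± 0.96 RPKM, Mrps30 2.39 ± 0.76 RPKM, Mrps5 2.83 ± 1.10 RPKM and Mrpl1 3.13 ± 2.11 RPKM, and their order is not resolved either. These SDs span tissue, training and time as well as library error.

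Of time, tissue and training, time was the comparison with the most members called. Summed over all 78 members, the level at 6 h was 1138 CPM in conditioned hippocampus, 1015 CPM in control hippocampus, 1248 CPM in conditioned cortex and 1136 CPM in control cortex. At 1 h it was 1836 CPM in control hippocampus and 1439 CPM in control cortex. The conditioned 1 h libraries had 1380 CPM under the hippocampus label and 1431 CPM under the cortex label. All 4 libraries at 6 h lay below all 4 libraries at 1 h, and the mean at 6 h was 1134 ± 95.2 CPM (SD, n = 4), against 1638 CPM over the 2 controls at 1 h. The Mrpl members averaged 709.9 ± 60.3 CPM at 6 h and 1051 CPM in the 1 h controls. The Mrps members averaged 424 ± 36.1 CPM at 6 h and 587 CPM in the 1 h controls. CPM here are scaled with TMM factors, and in tissue RNA fewer cells of a type and less RNA per cell cannot be told apart.

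**Figure D1:**
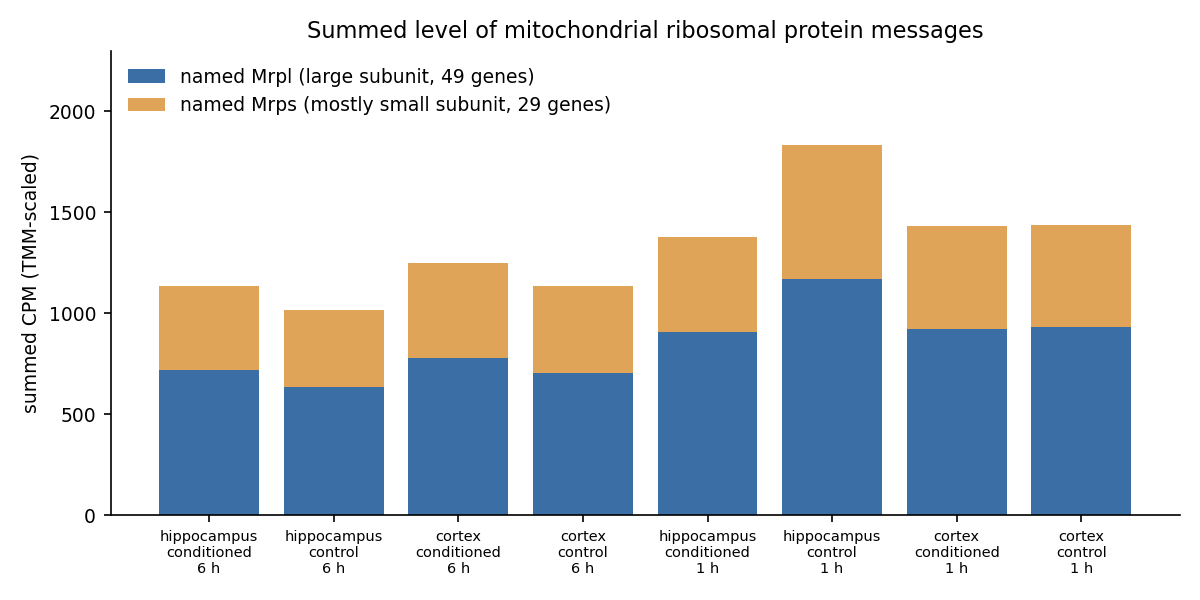
Summed level of the 49 Mrpl and the 29 Mrps members in each library, in TMM-scaled CPM, with 1 stacked bar a library and the libraries at 6 h left of those at 1 h. The control hippocampus library is the lowest of those at 6 h (1015 CPM over all members) and the highest of those at 1 h (1836 CPM).

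Gene by gene, 22 of the 78 members fell at 6 h and 1, Mrpl1, rose. The test was edgeR's quasi-likelihood test on the counts, with Benjamini-Hochberg adjustment over 16123 rows at 0.05. All conditioned libraries in this fit were from 6 h and had their own training term. The log2 change with time in this fit therefore rests on the controls, 6 h against 1 h. Over all rows tested, 10.3% fell, 12.9% rose and 23.2% were called either way. The median log2 change was -0.84 over the members, 62 of them negative, beside -0.03 over all rows. In 42 members all 4 libraries at 6 h lay below both 1 h controls, which held for 25.1% of all rows, and in 5 members they lay above both, which held for 23.9%. With all 4 libraries at 1 h in place of the controls, 35 members lay below (22.1% of all rows) and 5 above (22.1%).

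By origin and position in the ribosome, 10 of the 30 bacterial-type large subunit proteins fell and 1 rose, with a median log2 change of -0.55. Of the 21 mitochondria-specific large subunit proteins 3 fell (median -0.84). Of the 16 bacterial-type small subunit proteins 6 fell (median -0.98), and of the 10 mitochondria-specific ones 3 fell (median -1.12). The sum over those last 10 was 234 ± 27.8 CPM at 6 h (SD, n = 4) and 237 CPM in the 1 h controls, and Mrps25 made up much of it. Mrps25 had 86.0 and 94.6 CPM in conditioned and control hippocampus at 6 h and 115.9 and 111.6 CPM in conditioned and control cortex at 6 h, against 81.4 CPM in control hippocampus and 54.9 CPM in control cortex at 1 h. Its log2 change of 0.66 (SE 0.40) had an adjusted p of 0.22 in edgeR's test.

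The small subunit held the largest and the second largest falls. Mrps34, a mitochondria-specific protein of the small subunit, had 2.30 and 1.11 CPM in conditioned and control hippocampus at 6 h and 5.72 and 3.40 CPM in conditioned and control cortex at 6 h, against 19.5 CPM in control hippocampus and 10.3 CPM in control cortex at 1 h. Its log2 change was -2.58 (SE 0.64), with an adjusted p of 0.00952 in edgeR's test. All 4 values at 6 h lay below both controls at 1 h, and below both conditioned 1 h libraries, the lower of which had 10.5 CPM. Mrps12, which sits at the decoding centre, had 4.14 and 0.553 CPM in conditioned and control hippocampus at 6 h and 7.82 and 7.19 CPM in conditioned and control cortex at 6 h, against 32.0 CPM in control hippocampus and 16.7 CPM in control cortex at 1 h. Its log2 change was -2.57 (SE 0.66), adjusted p = 0.0110 in edgeR's test. The 0.553 CPM is a single count.

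Other small subunit members that fell were Mrps16 (log2 change -2.10) and Mrps26 (-2.01), and the group also held Mrps21 (-1.77), Mrps11 (-1.73), Mrps7 (-1.70), Mrps6 (-1.65) and Mrps18b (-1.61). MRPS16 is known from human patients with a defect of several respiratory chain complexes. Mrps18a (-1.65), of the large subunit in spite of its name, fell as well.

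In the large subunit, Mrpl28 had 4.37 and 0.553 CPM in conditioned and control hippocampus at 6 h and 8.20 and 10.4 CPM in conditioned and control cortex at 6 h, against 34.3 CPM in control hippocampus and 26.0 CPM in control cortex at 1 h. It fell by 2.53 on the log2 scale (SE 0.63, adjusted p = 0.00937 in edgeR's test), and no value at 6 h reached a value at 1 h. Mrpl23, which sits at the exit tunnel, had 1.61 CPM and 0 counts in conditioned and control hippocampus at 6 h and 2.48 and 2.65 CPM in conditioned and control cortex at 6 h, against 11.8 CPM in control hippocampus and 7.42 CPM in control cortex at 1 h. Its 0 counts allow up to 1.66 CPM, 3 counts in that library, and the log2 change was -2.49 (SE 0.72, adjusted p = 0.0188 in edgeR's test). Neither gene's values at 6 h overlapped those at 1 h.

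Mrpl14 had 2.53 and 0.553 CPM in conditioned and control hippocampus at 6 h and 6.10 and 5.48 CPM in conditioned and control cortex at 6 h, against 13.9 CPM in control hippocampus and 16.2 CPM in control cortex at 1 h. Mrpl2, a protein close to the peptidyl transferase centre, had 5.29 and 0.553 CPM in conditioned and control hippocampus at 6 h and 7.44 and 6.43 CPM in conditioned and control cortex at 6 h, against 12.8 CPM in control hippocampus and 20.7 CPM in control cortex at 1 h. Both had all values at 6 h below both controls at 1 h, with log2 changes of -2.32 (SE 0.61, adjusted p = 0.0121) for Mrpl14 and -2.20 (SE 0.59, adjusted p = 0.0138) for Mrpl2 in edgeR's test.

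Mrpl55 had 7.36 CPM and 0 counts in conditioned and control hippocampus at 6 h and 9.15 and 5.48 CPM in conditioned and control cortex at 6 h, against 16.7 CPM in control hippocampus and 13.5 CPM in control cortex at 1 h. Mrpl20 had 2.53 and 0.553 CPM in conditioned and control hippocampus at 6 h and 4.58 and 6.24 CPM in conditioned and control cortex at 6 h, against 21.6 CPM in control hippocampus and 13.5 CPM in control cortex at 1 h. Neither gene's values at 6 h overlapped the 1 h controls, and the log2 changes were -2.28 (SE 0.67, adjusted p = 0.0212) for Mrpl55 and -2.27 (SE 0.65, adjusted p = 0.0176) for Mrpl20 in edgeR's test. The remaining large subunit falls ran to -1.29 on the log2 scale, in Mrpl4 (adjusted p = 0.0487 in edgeR's test). Just past the threshold lay Mrpl34 with -1.49 (adjusted p = 0.0509) and Mrpl54 with -1.75 (adjusted p = 0.0674).

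The proteins of the ribosomal stalks moved in both directions. Mrpl12, the stalk protein that meets the translation factors, had 7.13 and 9.41 CPM in conditioned and control hippocampus at 6 h and 9.15 and 9.27 CPM in conditioned and control cortex at 6 h, against 36.9 CPM in control hippocampus and 32.3 CPM in control cortex at 1 h. Its log2 change was -1.83 (SE 0.46, adjusted p = 0.00998 in edgeR's test), with little spread within either time. Its partners at the base of that stalk, Mrpl10 (-1.36) and Mrpl11 (-1.64), fell too. Mrpl1, of the other stalk, which helps the spent tRNA to leave, had 10.6 and 24.3 CPM in conditioned and control hippocampus at 6 h and 10.7 and 9.64 CPM in conditioned and control cortex at 6 h, against 5.57 CPM in control hippocampus and 3.71 CPM in control cortex at 1 h. All its values at 6 h exceeded the 1 h controls, with a log2 change of 1.84 (SE 0.54, adjusted p = 0.0202 in edgeR's test). Of the 6 stalk genes 3 fell and 1 rose, and their sum was 63.8 ± 8.12 CPM at 6 h (SD, n = 4), against 140 CPM in the 1 h controls. Of the 8 genes listed for the exit tunnel 1 fell, and that list leaves out Mrpl4, which fell too. Of the 8 genes listed for the central protuberance 2 fell.

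**Figure D2:**
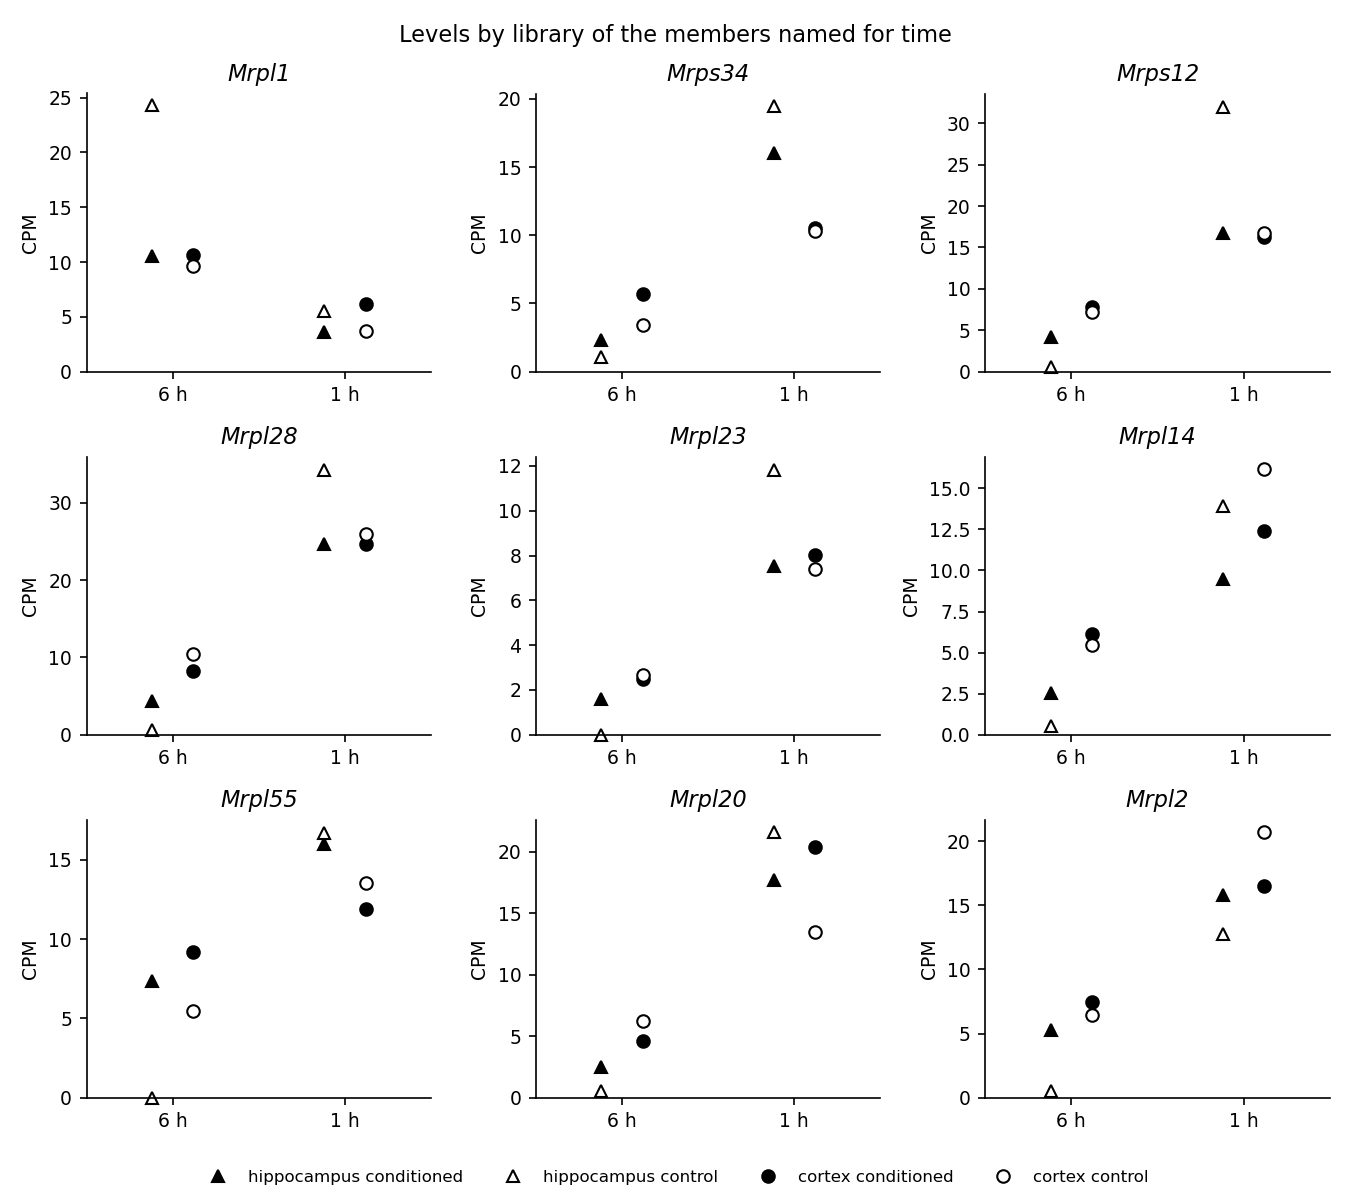
TMM-scaled CPM in each library for members with the largest changes with time, 1 point a library (triangles hippocampus, circles cortex, filled conditioned, open control), with the 6 h libraries left of the 1 h libraries. Mrps34, Mrps12 and Mrpl28 lie lower in all 4 libraries at 6 h than in both controls at 1 h, and Mrpl1 lies higher.

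The falls rested unevenly on the libraries. The 6 h over 1 h ratio of the controls had a member median of -1.34 on the log2 scale in hippocampus (all rows -0.18) and -0.39 in cortex (all rows -0.02). In hippocampus 47 members were past -1, where 30.8% of all rows were, and in cortex 17, where 13.3% of all rows were. Conditioned hippocampus at 6 h over control hippocampus at 1 h gave a member median of -0.79 (all rows 0.01), and conditioned cortex at 6 h over control cortex at 1 h gave -0.24 (all rows -0.01). The 2 hippocampus ratios share their 1 h library, and the 2 cortex ratios share theirs. Without control hippocampus at 6 h, 4 members fell, Mrps34, Mrpl12, Mrps18b and Mrpl37 (background 1.99%), and none rose. Without control hippocampus at 1 h, edgeR called 0 members and 0 of 16616 rows (0.0%), with 7 members and 17.0% of all rows at an unadjusted p under 0.05. Without control cortex at 1 h 7 members fell (background 1.56%). The size of single falls moved with the libraries too. With 1 library left out at a time the log2 change ran from -8.83 to -1.40 for Mrpl55, -8.27 to -1.68 for Mrpl23, -5.53 to -1.56 for Mrpl28, -5.34 to -1.52 for Mrps12 and -4.84 to -1.38 for Mrpl20. It ran from -4.39 to -1.58 for Mrpl2, -4.27 to -1.71 for Mrpl14, -3.85 to -1.62 for Mrps34 and 1.23 to 2.38 for Mrpl1. The largest values came without control cortex at 6 h, except for Mrps34, where they came without control cortex at 1 h. Without control cortex at 6 h the remaining control at 6 h was control hippocampus, where Mrpl55 and Mrpl23 had 0 counts, so their fitted values depend on the prior count and bound no fold. In both fits that left out a hippocampus control all 22 members kept a negative log2 change. The 22 were picked from the same libraries that these fits reuse, so the kept sign is no independent check. DESeq2 called 19 members lower with the 6 libraries and limma-voom 22. The shares of all rows that these tools called are not given, so the counts are no result about the members alone. With all 8 libraries as labelled edgeR called 28 lower and 6 higher (background 19.3% and 23.1%). That fit holds the 6 libraries that picked the 22, all of which were among the 28, so it is no independent check. It counts the conditioned 1 h pair, which agreed within sampling noise, as 2 libraries.

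A test of whether the 6 h change differed between hippocampus and cortex called 0 members and 0 of 16824 rows in edgeR (0.0%). At an unadjusted p under 0.05 there were 4 members, Mrpl28, Mrpl42, Mrpl51 and Mrps12, each with a more negative change in hippocampus, and 1.36% of all rows. The adjusted p was 1 for each, with 1 residual degree of freedom.

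**Figure D3:**
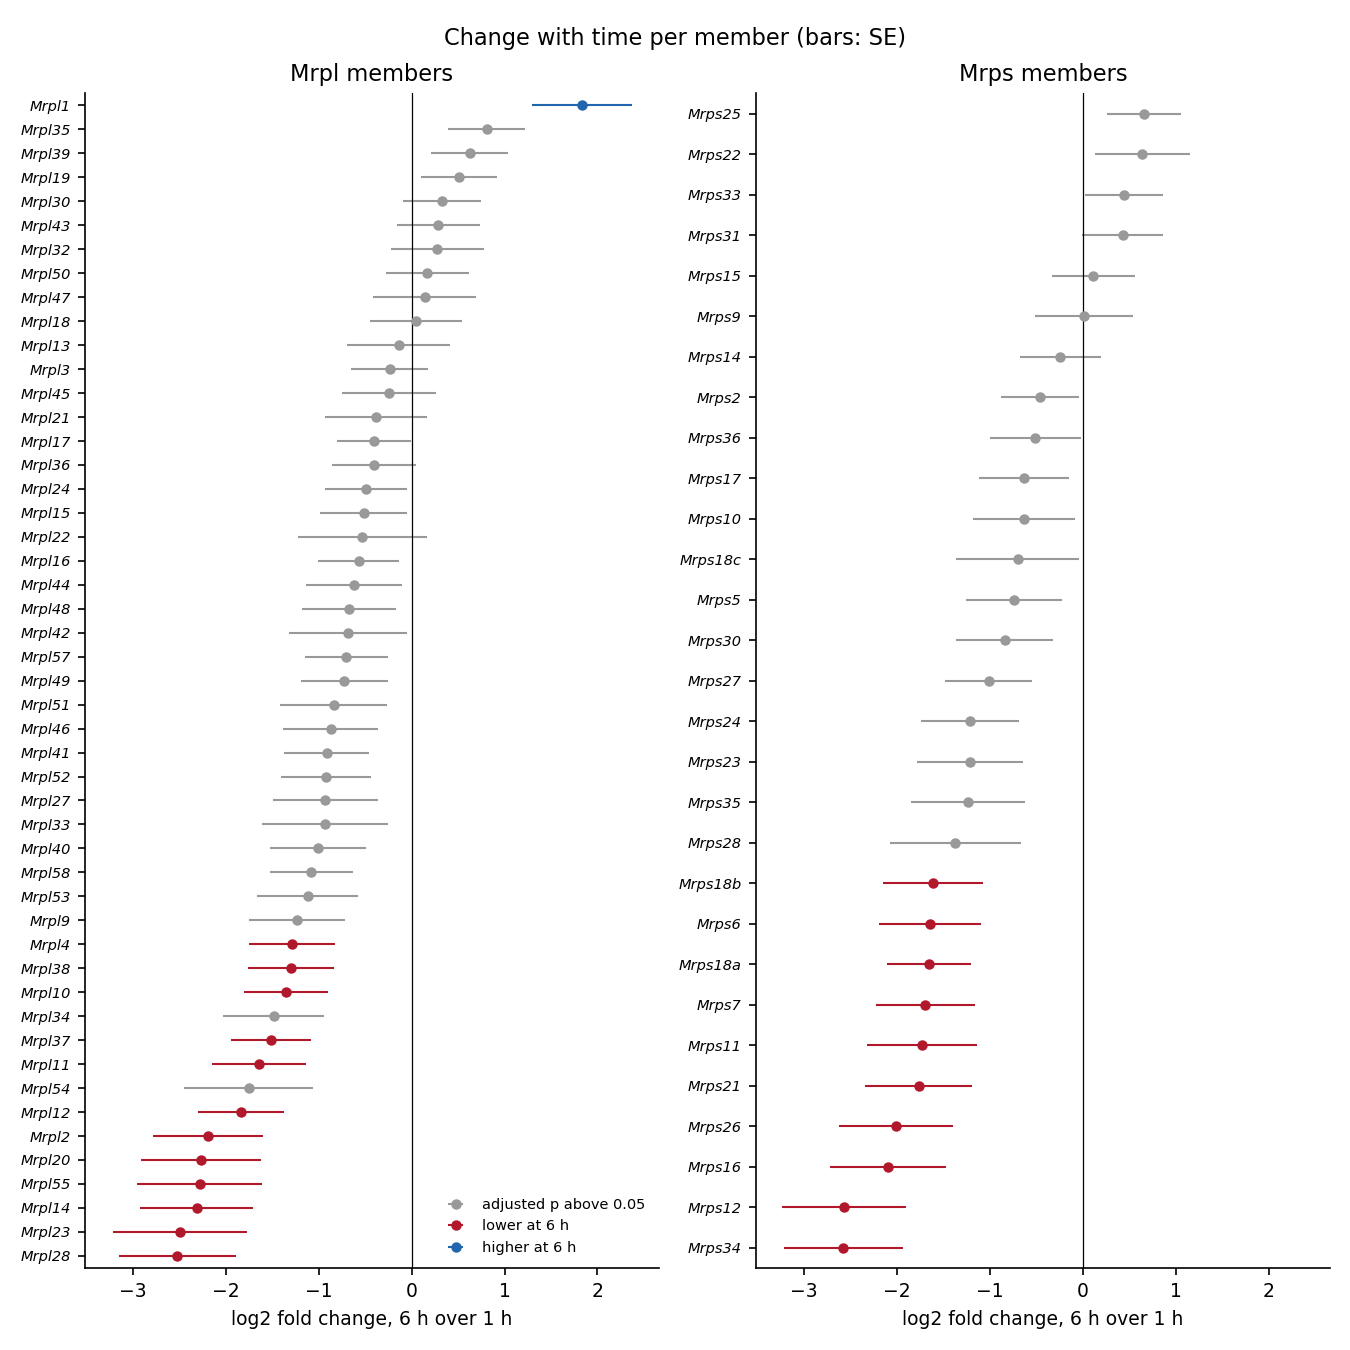
Log2 change from edgeR at 6 h against 1 h for each of the 78 members, with bars of 1 SE and the members past an adjusted p of 0.05 set apart. The median is -0.84, and Mrps34 (-2.58) and Mrpl1 (1.84) are the ends of the range.

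The change with time followed the base composition of the transcripts. Across the 78 members the log2 change and the GC content of the transcript had a Pearson r of -0.70 and a Spearman rho of -0.71, and across 15744 rows with a length they had -0.73 and -0.75. Both are descriptions across genes of the same libraries, and genes are not independent replicates. The 22 members that fell had a median GC content of 55.4% and the other 56 had 49.3%. The 26 members with the highest GC content had a median log2 change of -1.58, beside -0.91 over the 5274 rows of that GC range. Of these 26 members 15 fell, and of those 5274 rows 1198 fell. The 26 members with the lowest GC content had a median of -0.32, beside 0.78 over the 5670 rows of that range. Of these 26 members 1 fell, and of those 5670 rows 28 fell. Within bins of 2 percentage points of GC content, 69 of the 78 members lay below the median of all rows in their bin, and 53 lay below its lower quartile. Members are also short, with a median transcript length of 1224 nt, against 3094 nt over all rows.

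With offsets for each library's trend with GC content and length, 7 members fell and none rose, against 1.61% and 4.7% of all rows. The median was then -0.37 over the members, 59 of them negative, and 0.01 over all rows. The offsets left a trend with length among the members. Their Pearson r with log2 length was 0.40 before the offsets and -0.37 after them, where all rows had 0.01. With GC content it was 0.16 over the members after the offsets and -0.05 over all rows. The 7 were Mrps16 (log2 change -2.38), Mrps26 (-2.12), Mrpl11 (-1.79), Mrpl57 (-1.62), Mrps30 (-1.58), Mrpl17 (-1.52) and Mrps14 (-1.49), of which 3, Mrps16, Mrps26 and Mrpl11, were among the 22. For Mrps16, Mrps26 and Mrpl57 the annotated transcript exceeds the RefSeq gene span, so the GC content and length used for them are uncertain. Of the 22, 20 stayed negative, and the exceptions were Mrpl4 (0.23) and Mrpl38 (0.14). Mrpl1, which rose without offsets, had a log2 change of 0.72 with an adjusted p of 0.357 in edgeR with them. Whether the trend with GC content arose in the tissue or in library preparation was not tested, and time and preparation cannot be told apart where labels give no preparation batch.

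**Figure D4:**
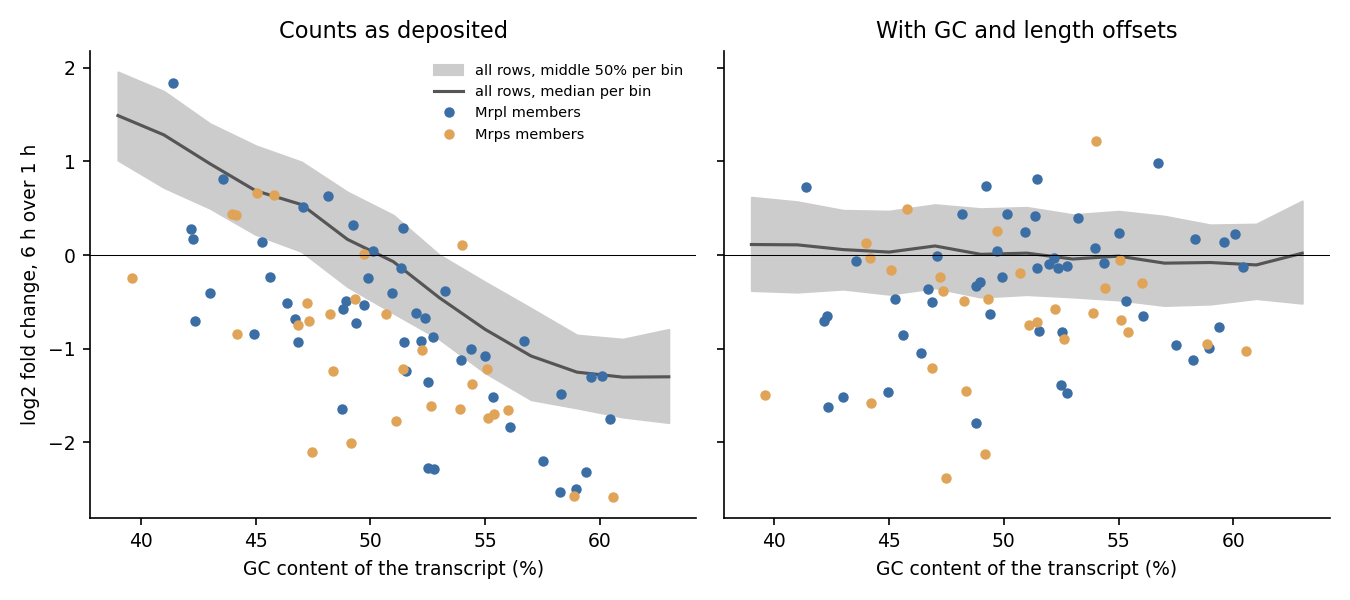
Log2 change at 6 h against 1 h by transcript GC content (percent) for the 78 members, before and after offsets for GC content and length, against all rows. Before offsets the members slope down with the other rows (Pearson r of -0.70 over the members) and lie mostly below them, and after offsets their median is -0.37.

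Markers of other cell types were set beside the change with time. The 6 astrocyte markers summed to 1138 to 1522 CPM in the libraries at 6 h, against 794 to 888 CPM in the 1 h controls. Slc1a2, a glutamate transporter, made up most of those counts. Aqp4 and Slc1a2 were higher in all 4 libraries at 6 h than in both 1 h controls, Aldh1l1 was lower in all 4, and without Slc1a2 the sums overlapped, with 160 to 320 CPM at 6 h and 207 to 259 CPM in the 1 h controls. The 6 interneuron markers summed to 660.0 to 761 CPM at 6 h, against 526.5 to 613 CPM in the 1 h controls. Among them Gad2, an enzyme that makes GABA, was higher in all 4 libraries at 6 h, Slc32a1 and Pvalb were lower in all 4, and without Gad2 the sums overlapped, with 313.5 to 543.5 CPM at 6 h and 398 to 509 CPM in the 1 h controls. The ranges of the oligodendrocyte and microglia sums overlapped between the times. Oligodendrocyte markers summed to 559 to 1081 CPM at 6 h and 689 to 1203 CPM in the 1 h controls. Microglia markers summed to 31.4 to 48.1 CPM at 6 h and 40.0 to 42.9 CPM in the 1 h controls. Among the microglia markers C1qa and Tmem119 were lower in all 4 libraries at 6 h than in both 1 h controls, and none was higher. C1qa had at most 4 counts in any of these libraries. The part of cell content in the members' change was not tested.

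Some other genes of mitochondrial translation moved in both directions at 6 h. Of 5 mitochondrial ribosome proteins with other names, Ptcd3 rose (log2 change 1.69) and Gadd45gip1, of the large subunit, fell (-1.33). Of 15 translation factors tested, Mtif2, the initiation factor that brings the first tRNA, rose (1.36), and Tufm, the elongation factor that brings the others, fell (-2.19). Tufm had 4.83 and 2.21 CPM in conditioned and control hippocampus at 6 h and 12.4 and 9.83 CPM in conditioned and control cortex at 6 h, against 26.0 CPM in control hippocampus and 25.7 CPM in control cortex at 1 h. Of 24 assembly and rRNA modification genes, the GTPase Gtpbp10 (2.83) and Mterf3 (1.64) rose and the helicase Dhx30 (-1.21) fell. Of 9 tested genes of mitochondrial transcription and DNA maintenance Polrmt, the RNA polymerase, fell (-1.72). Of 12 genes of membrane insertion and quality control the protease Yme1l1 rose (1.83), and the protease Clpp (-1.71) and the prohibitin Phb (-1.51) fell. All 11 passed an adjusted p of 0.05 in edgeR's test. They are 16.9% of the 65 tested genes of these lists, below the 23.2% called over all rows. The 5 that rose had a GC content of 38.05% (Yme1l1) to 44.4% (Mtif2), and the 6 that fell had 54.8% (Dhx30) to 60.9% (Polrmt). With the offsets for GC content and length none of the 11 passed, and Noa1 (1.48, adjusted p = 0.0239) and Malsu1 (-1.36, adjusted p = 0.0405) did in edgeR.

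Between the tissues, no member differed in edgeR's test, where 3.72% of all rows did. At an unadjusted p under 0.05 there were 5 members, against 13.5% of all rows, and DESeq2 and limma-voom called 0 each. The median log2 difference of hippocampus against cortex was -0.15 over the members, 28 positive and 50 negative, beside 0.00 over all rows. On the higher side, by smallest p, Mrpl52 had a log2 difference of 0.95 (SE 0.40), Mrpl30 0.76, Mrps33 0.61, Mrpl35 0.55 and Mrpl1 0.62. On the lower side Mrpl2 had -1.04, Mrpl14 -1.07, Mrps10 -0.95, Mrpl16 -0.69 and Mrps35 -0.85, and the adjusted p over these 10 in edgeR was 0.262 to 0.615. Mrpl52 had 11.96 and 14.9 CPM in conditioned and control hippocampus at 6 h and 23.7 CPM in control hippocampus at 1 h, against 6.29 and 5.86 CPM in conditioned and control cortex at 6 h and 14.6 CPM in control cortex at 1 h. Within each pair hippocampus was higher, and with offsets for GC content and length Mrpl52 passed, with 1.39 (SE 0.41, adjusted p = 0.0442 in edgeR), where 3.64% of all rows were higher. With the same offsets and control hippocampus at 6 h left out it had 0.70 (adjusted p = 0.274 in edgeR).

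Pair by pair, the median log2 ratio of hippocampus over cortex was 0.35 in the 1 h controls, with 65 of 78 members positive, beside 0.10 over all rows. It was -0.56 in the 6 h controls, with 19 positive, beside -0.09 over all rows, and -0.23 in the conditioned libraries at 6 h, with 22 positive, beside 0.01 over all rows. Each is 1 library against 1, with no replicate check, and the test of the difference between times, the interaction above, called 0 members.

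Fear conditioning at 6 h moved no member past the threshold. The fit called 0 members and 0 of 16123 rows in edgeR (0.0%), with 1 member, Mrpl55, and 4.13% of all rows at an unadjusted p under 0.05. DESeq2 and limma-voom called 0 members each. The median log2 difference of conditioned against control was 0.23 over the members, 55 positive and 23 negative, beside 0.02 over all rows. Mrpl55 had 7.36 CPM in conditioned hippocampus and 9.15 CPM in conditioned cortex, against 0 counts in control hippocampus and 5.48 CPM in control cortex, a log2 difference of 1.40 (SE 0.67). Mrpl38 (0.87), Mrpl40 (0.91), Mrpl54 (1.24) and Mrpl45 (0.87) followed on the higher side. On the lower side Mrpl48, whose row is a noncoding transcript, had -0.60, Mrpl35 -0.47, Mrpl1 -0.54, Mrps10 -0.43 and Mrpl30 -0.30. The adjusted p over these 10 in edgeR was 0.911 to 0.929. Without control cortex at 6 h, 7 members were higher in conditioned libraries, Mrpl28, Mrpl4, Mrpl55, Mrps11, Mrps12, Mrps28 and Mrps6, where 7.59% of all rows were.

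Within cortex the conditioned and control libraries at 6 h were close. The median log2 ratio was 0.09 over the members and 0.01 over all rows, and 1 member, Mrpl36, was past 1, where 0.875% of all rows were, and 0 were past -1, where 1.29% of all rows were. Exact 95% intervals of the ratio of counts lay above 1 for 9 members, where 11.9% of all rows did, and below 1 for 1, Mrps2, where 10.7% did. They cover counting error alone, and the share above 1 is near the background. Mrpl27 had 17.9 CPM in conditioned cortex and 8.89 CPM in control cortex, a ratio of 2.02 (1.41 to 2.93). Mrpl40, of the central protuberance, had 13.2 CPM in conditioned cortex and 7.37 CPM in control cortex, a ratio of 1.78 (1.19 to 2.71). Mrpl45, which holds the ribosome to the inner membrane, had 17.4 CPM in conditioned cortex and 10.4 CPM in control cortex, a ratio of 1.67 (1.18 to 2.38). Each is a difference between 1 library and 1 library whose interval for counting error lies above 1, with no replicate check. The variance of the difference between these libraries was 2.285 times that of counting alone over the members. It was 5.16 times over all rows with 20 or more counts in the pair.

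Within hippocampus the spread was wider. The median log2 ratio of conditioned over control was 0.53 over the members and 0.11 over all rows, with 24 members past 1 (22.7% of all rows) and 1, Mrpl1, past -1 (11.9%). The intervals lay above 1 for 23 members, where 27.2% of all rows did, and below 1 for 5, Mrpl1, Mrpl30, Mrpl35, Mrpl39 and Mrps33, where 26.2% of all rows did. Mrpl40 had 10.8 CPM in conditioned hippocampus and 4.98 CPM in control hippocampus, a ratio of 2.17 (1.05 to 5.04), and Mrpl45 had 15.9 CPM in conditioned hippocampus and 7.19 CPM in control hippocampus, a ratio of 2.21 (1.21 to 4.35). Mrpl1 had 10.6 CPM in conditioned hippocampus and 24.3 CPM in control hippocampus, a ratio of 0.435 (0.281 to 0.673), where its cortex ratio was 1.11 (0.744 to 1.65). Mrpl40, Mrpl45 and Mrpl55 had intervals above 1 in both tissues, and Mrps33 had one above 1 in cortex and below 1 in hippocampus. The share of all rows with intervals above 1 in both tissues is not given, so this overlap is not read as agreement between tissues. The control library of hippocampus is the one with a median of 11 counts a member.

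**Figure D5:**
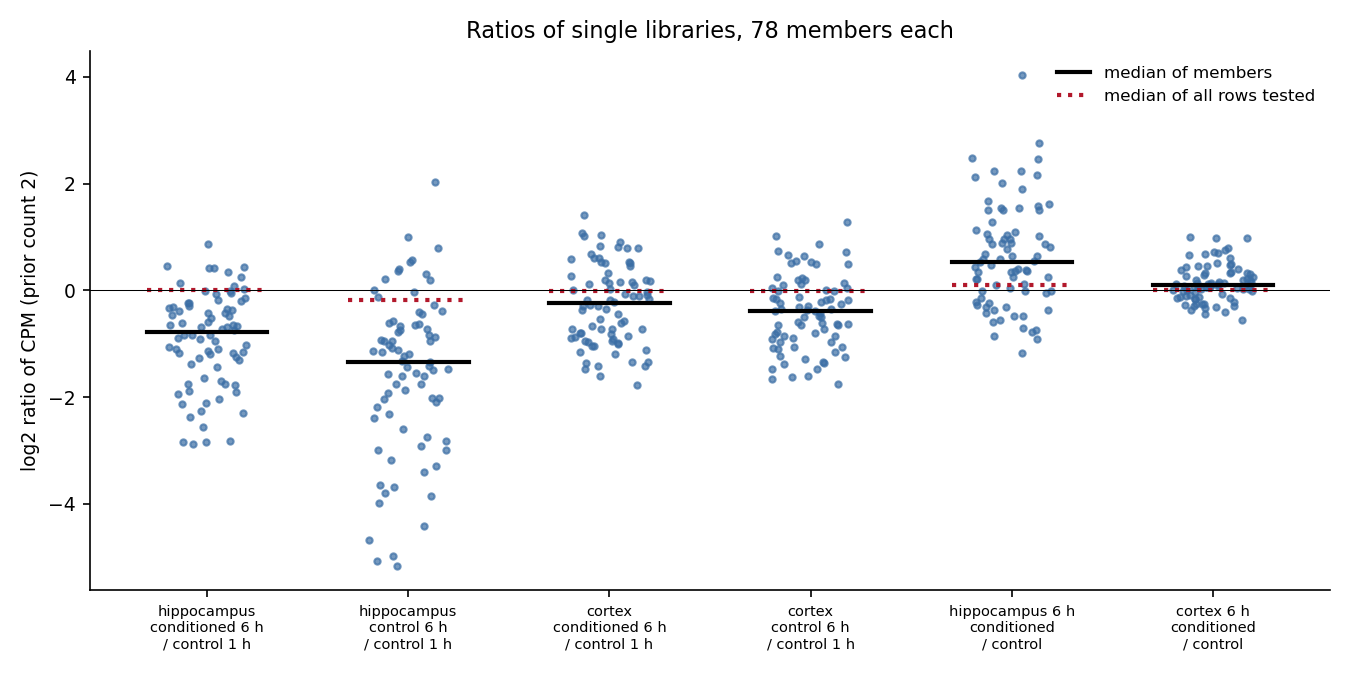
Log2 ratio of each of the 78 members for pairs of single libraries, with the median of the members and that of all rows marked. Conditioned over control at 6 h spreads little in cortex (median 0.09) and widely in hippocampus (median 0.53), and 6 h over 1 h lies lower in hippocampus controls (median -1.34) than in cortex controls (-0.39).

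Overlap between genes limits some of these values. Exons of 33 members overlap exons of another annotated gene, on the other strand for 28 and on the same strand for 8, and 9 of the 22 members that fell are among the 33. Mrps11 and Mrpl46 overlap each other head to head. Mrps34, the largest fall, overlaps Nme3 on the same strand and Mapk8ip3 on the other. Mrpl14, also among the 8 largest falls, overlaps Tmem63b on the other strand. The share of all genes with such overlaps is not given. Neither strand use in counting nor the treatment of reads shared with the 5 annotated pseudogenes of members is given in the sources used here, so counts of such members are uncertain.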

How the data were processed

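Polyribosome-associated RNA was measured in 8 libraries, 1 per combination of tissue, training and time. The deposited values are whole-number counts per RefSeq transcript. The tools listed, per the submitters' processing notes, were TopHat 1.3.1, CASAVA 1.7, limma 3.12.3 and edgeR 2.612, with build mm9. The program that counted reads was not given in the sources used here. Library RNA was depleted of ribosomal RNA, and cDNA from poly A and random hexamer priming was amplified by SPIA, per the labels' protocols. Amplified reads are not independent molecules, so intervals cover counting error only.

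Symbols came from RefSeq for 98.1% of 27304 IDs. The 594 rows without a symbol held 1.19% to 1.99% of a library's counts and took part in the tests. The members and gene lists were chosen with earlier results of these data known. In edgeR 4.0.16 (R 4.3.3) counts were filtered with filterByExpr, scaled by TMM and fitted with a robust quasi-likelihood model of tissue, training and time over 6 libraries, with 2 residual degrees of freedom and Benjamini-Hochberg adjustment over all rows at 0.05. The conditioned 1 h libraries were left out because they agreed within sampling noise across the tissue labels. The SE given with a log2 change in edgeR is the size of that change divided by the square root of the test's F statistic. The fit was tested on simulated data. Alternatives were DESeq2 1.42.0, limma-voom (limma 3.58.1), other scalings, no filter, all 8 libraries, rows of a gene summed, each library left out, and offsets for GC content and length from GENCODE M21 transcripts. Log2 ratios of single libraries used a prior count of 2, with exact 95% binomial intervals for ratios of counts. Named members were the 8 largest falls and rises that passed for time, the 5 of smallest p in each direction for tissue and training, and the 5 highest and lowest levels. Any other member named was chosen after its values were seen.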

Additional observations from a re-analysis of the deposited data

Results flagged for a closer look

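The 4 libraries at 6 h were searched for a value far from the others by Dixon's ratio of the gap to the whole range. This was done for the 26 members named by rule and 3 sums over members, 29 sets in all. Chance exceeds the critical value in about 5% of sets drawn from a single population. These 4 libraries differ in tissue and training, and some members were named from these same values. The 5% therefore does not hold here, and the flags are descriptive. The ratio passed the 95% critical value for Mrpl1 (0.930) and Mrpl35 (0.864), both high in control hippocampus. It also passed for Mrps21 (0.845), low in control hippocampus, and for Mrps30 (0.873), high in conditioned hippocampus. Mrpl35 had 34.5 and 59.8 CPM in conditioned and control hippocampus and 30.5 and 33.5 CPM in conditioned and control cortex. Mrps21 had 8.74 and 2.77 CPM in conditioned and control hippocampus and 9.15 and 9.83 CPM in conditioned and control cortex. Mrps30, a large subunit protein, had 8.51 and 5.53 CPM in conditioned and control hippocampus and 5.91 and 5.86 CPM in conditioned and control cortex. Control hippocampus at 6 h is the library with the fewest counts, and the part of its depth in these values was not tested.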

How the results depend on the processing

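The count of members lower at 6 h, 22 with edgeR and TMM, was 18 to 23 with other scalings, DESeq2, limma-voom, no filter, rows of a gene summed and the conditioned 1 h pair summed, and 1 member was higher in each. Upper-quartile scaling moved the median log2 change of all rows to -0.17, against -0.03 with TMM. With offsets for GC content and length there were 7 lower and 0 higher, where 1.61% and 4.7% of all rows were. The share of all rows called moved with the setting too. A count given in this paragraph without its share is therefore no result about the members alone. Settings chosen after seeing the data gave 8 lower and 0 higher with offsets for GC content alone, 11 lower and 1 higher with offsets in all 8 libraries, and 1 lower and 0 higher with offsets and control hippocampus at 6 h left out. All 8 libraries as labelled gave 28 lower and 6 higher, and 29 lower and 4 higher without control hippocampus at 6 h. Each fit with both conditioned 1 h libraries counts that pair, which agreed within sampling noise, as separate libraries. Leaving out 1 library at a time gave 0 to 30 lower and 0 to 2 higher, with 0 lower without control hippocampus at 1 h. For tissue, 1 member was higher with offsets for GC content and length and 0 in every other setting run. For training, 0 members were higher in the settings without a further library left out. Fits with 1 library left out rest on 1 library in a group, so their calls for training are not counted. The log2 changes of the members named by rule, 9 for time and 10 for tissue, kept their sign in the settings run. These members were named from the same libraries, so the kept sign is no independent check. With 1 library left out, the training difference ran over -1.12 to 0.02 for Mrpl1 and over -0.69 to 0.06 for Mrpl30. Mrpl1 (0.02) and Mrpl30 (0.01) were positive without control hippocampus at 6 h, and Mrpl30 (0.06) without conditioned hippocampus at 6 h. The cause was not tested. No paired analysis was possible because each combination of tissue, training and time has 1 library and no replicate number to block on. For tissue, the terms for time and training already set hippocampus against cortex within each of 3 pairs. The limits are 2 residual degrees of freedom, 1 library per combination and a median of 11 counts a member in control hippocampus at 6 h.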
